A study of Homo sapiens with 18 samples.

Results

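The genes described here are 38 human genes of glycolysis and of the response to low oxygen. They encode carriers of glucose and lactate, the enzymes from hexokinase to lactate dehydrogenase, and a kinase that shuts off pyruvate dehydrogenase. Others encode the hypoxia-inducible factors, the enzymes that mark those factors for breakdown, and products that cells are known to make more of when oxygen is scarce. They were taken from a list of gene names, and the 38 names matched 38 of the 58884 gene identifiers in the count files. RNA with poly(A) tails was sequenced from T47D, an established line of luminal breast cancer cells. The series asks what the PARP inhibitors niraparib and olaparib do to gene expression in these cells when PARP1 is intact and when it has been knocked out. Cells labelled T47D AAV had the WT genotype and cells labelled T47D JL were PARP1 KO. Both were kept for 48 h with DMSO, the solvent control, with niraparib at 10 µM or with olaparib at 10 µM, which made 6 groups of 3 libraries, 18 in all.

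Some features of the design limit what the groups can show. The knockout is represented by 1 line, and the sources used here do not state whether it was grown from a single cell, so the loss of PARP1 and other differences between the lines cannot be told apart. The labels do not say that the libraries of a group came from separate cultures, although the methods speak of dishes for each condition, so every p-value measures the spread between these libraries and no more. The labels and the methods also give different culture media, different RNA kits and different amounts of RNA. Total counts in replicates 1 to 3 were 30293678, 52251288 and 40400309 in WT with DMSO, 32091426, 51595251 and 38721980 with niraparib and 38707275, 37116848 and 31810723 with olaparib. In PARP1 KO the totals were 37125006, 30843001 and 37601647 with DMSO, 28890837, 32462939 and 42054783 with niraparib and 39770851, 40873768 and 29760855 with olaparib.

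In 3 of the 6 groups 1 library stood apart from the other 2. The difference between 2 libraries of a group was measured as a chi-square of their counts per gene, which lies near 1 for repeated reads of 1 sample and grows with depth. It was 15.9 and 17.3 for WT DMSO replicate 1, 11.2 and 15.3 for WT niraparib replicate 2 and 10.7 and 13.4 for PARP1 KO niraparib replicate 3, against 3.14, 3.24 and 3.002 between the other 2 libraries of each group. The values ran from 3.49 to 4.63 in WT with olaparib, from 3.01 to 9.68 in PARP1 KO with DMSO and from 7.53 to 16.6 in PARP1 KO with olaparib. The 3 libraries also deviated alike from the means of their groups, with correlations over 13530 genes from 0.601 to 0.655, a description of genes measured in the same libraries. What set them apart was not tested. Fits without these 3 libraries, or without those of them that a fit holds, are given beside the counts of members below.

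Glycolysis splits glucose into pyruvate in the cytosol, and lactate dehydrogenase can turn that pyruvate into lactate, which leaves the cell through monocarboxylate carriers. The transcription factors HIF1A and EPAS1 are hydroxylated by EGLN enzymes while oxygen is present and are then destroyed, and when oxygen is scarce they persist and raise transcription of many glycolytic enzymes, of the glucose carrier SLC2A1 and of the vessel growth factor VEGFA. Breast cancer cells commonly take up much glucose and release lactate even in air.

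PARP1, which encodes the enzyme that both drugs inhibit, was read first as a check of the genotype labels. In the 9 WT libraries PARP1 took from 313 to 368 CPM (counts per 1000000 counts of the library), with a median of 339.9 and a mean of 341 ± 17.9 (SD, n = 9). The 9 PARP1 KO libraries held 22.9 to 27.1 CPM, with a median of 24.4 and a mean of 24.8 ± 1.34 (SD, n = 9), or 7.27% of the WT mean. No PARP1 KO library came near a WT library (exact two-sided permutation test, p = 4.11e-05, the smallest that 9 against 9 allows). All 8 luminal markers checked (ESR1, PGR, GATA3, FOXA1, KRT8, KRT18, KRT19 and EPCAM) were above 1 TPM (transcripts per 1000000, from counts divided by exon length) in every library, and their sum ran from 9921 to 14308 TPM. Of 6 markers of other cell types, VIM, PTPRC, PECAM1, KRT5 and KRT14 were below 1 TPM in every library, while COL1A1 ran from 32.7 to 63.3 TPM. The markers of other cells summed to 33.0 to 63.8 TPM, with a median of 40.8. In bulk RNA such as this, fewer cells of a type and less RNA per cell cannot be told apart.

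In untreated WT cells the levels of the 38 genes spanned a wide range of TPM, the scale on which genes of different length can be compared. In WT with DMSO, 11 members had a mean of at least 100 TPM, 17 lay from 10 to below 100, 7 from 1 to below 10, and 3 (LDHB, EGLN3 and CA9) below 1. The glyceraldehyde-3-phosphate dehydrogenase GAPDH stood first at 1098 ± 57.9 TPM (SD, n = 3), before the enolase ENO1 at 720.5 ± 33.8 and the pyruvate kinase PKM at 528 ± 41.3. PFKFB3, which makes the sugar phosphate that switches phosphofructokinase on, came next at 372 ± 8.27 TPM. The hexokinase HK1 had 232 ± 9.79 TPM, the phosphoglycerate kinase PGK1 218 ± 13.5 and the lactate dehydrogenase LDHA 191 ± 9.32. The libraries of HK1 and PGK1, neighbours in this order, overlapped, as did those of LDHA and the triosephosphate isomerase TPI1 at 178 ± 8.58 TPM, while GAPDH, ENO1, PKM and PFKFB3 stood apart from one another. Among the genes of the hypoxia response, HIF1A had 92.4 ± 2.80 TPM, EPAS1 48.3 ± 0.332 and VEGFA 12.4 ± 1.60.

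**Figure D1:**
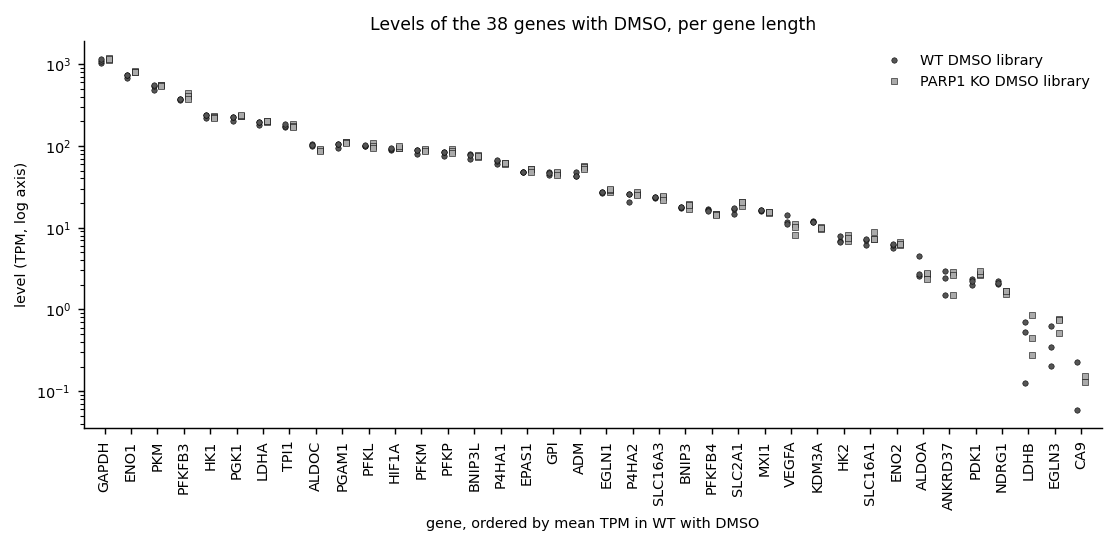
Levels of the 38 genes with DMSO in TPM on a log axis, ordered by the mean of the 3 WT libraries. Points are libraries, circles for WT and squares for PARP1 KO, and libraries without a count of the gene are not drawn. GAPDH stands first and CA9 last.

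CA9, a carbonic anhydrase that hypoxia induces strongly in many tumours, was close to absent, with 0, 5 and 1 counts in the WT libraries with DMSO and 13 counts over all 18 libraries, so it is given no fold change. LDHB, the other main lactate dehydrogenase subunit, had 3, 22 and 22 counts in WT with DMSO. ALDOA, usually the leading aldolase, had 141, 140 and 111 counts there and has 42.3% of its exonic sequence in common with a neighbouring gene of the same strand, where reads are not assigned, so its level is uncertain. LDHB has 33.4% of its exonic sequence in common with a neighbour in the same way.

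Promoters of the members were read from RefSeq (GRCh38.p14), which matched 34 of the 38 by symbol, as 300 bases from 250 before to 50 after the start of each gene. The cores ACGTG and GCGTG, the letters that hypoxia-inducible factors are known to bind, were searched on both strands, so a core also appears as CACGT or CACGC. At least 1 core stood in 24 of the 34 windows (70.6%), against 17012 of 35116 windows of all genes (48.4%), and ACGTG alone stood in 13 (38.2%), against 7518 (21.4%). A match is a description of the letters and not a site of binding. No core stood in the windows of 10 members, HK1, PFKM, PFKP, TPI1, PGAM1, PDK1, SLC16A3, EGLN3, P4HA2 and MXI1. The windows of 5 members whose RNA moved with niraparib in WT cells, LDHA, ALDOC and PFKFB3 downward and ENO2 and SLC2A1 upward, each with a core, are printed so that their letters can be seen beside those results, 5′ to 3′ on the strand of the gene, with the cores in capitals. LDHA (chr11:18394313-18394612, plus strand) held 6 cores and ALDOC (chr17:28576846-28577145, minus strand) held 5, some of them overlapping on opposite strands as CACGTG. PFKFB3 (chr10:6144671-6144970, plus strand), ENO2 (chr12:6914330-6914629, plus strand) and SLC2A1 (chr1:42958819-42959118, minus strand) held 1 each.
LDHA: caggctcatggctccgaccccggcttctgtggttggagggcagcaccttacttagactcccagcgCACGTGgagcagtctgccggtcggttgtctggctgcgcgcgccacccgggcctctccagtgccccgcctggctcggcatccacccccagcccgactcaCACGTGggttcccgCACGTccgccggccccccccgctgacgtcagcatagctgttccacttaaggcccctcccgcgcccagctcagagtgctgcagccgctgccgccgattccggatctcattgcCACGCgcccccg
ALDOC: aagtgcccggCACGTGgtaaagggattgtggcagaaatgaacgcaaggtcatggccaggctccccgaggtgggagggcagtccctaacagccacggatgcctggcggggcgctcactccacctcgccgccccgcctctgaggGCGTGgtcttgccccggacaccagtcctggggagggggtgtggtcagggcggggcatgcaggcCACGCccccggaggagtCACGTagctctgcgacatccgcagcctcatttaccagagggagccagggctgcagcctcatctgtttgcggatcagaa
PFKFB3: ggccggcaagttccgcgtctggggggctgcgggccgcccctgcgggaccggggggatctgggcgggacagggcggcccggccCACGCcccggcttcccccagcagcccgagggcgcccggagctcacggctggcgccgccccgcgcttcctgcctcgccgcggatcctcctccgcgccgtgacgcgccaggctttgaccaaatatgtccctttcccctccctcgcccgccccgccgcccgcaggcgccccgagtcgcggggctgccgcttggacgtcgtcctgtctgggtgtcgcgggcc
ENO2: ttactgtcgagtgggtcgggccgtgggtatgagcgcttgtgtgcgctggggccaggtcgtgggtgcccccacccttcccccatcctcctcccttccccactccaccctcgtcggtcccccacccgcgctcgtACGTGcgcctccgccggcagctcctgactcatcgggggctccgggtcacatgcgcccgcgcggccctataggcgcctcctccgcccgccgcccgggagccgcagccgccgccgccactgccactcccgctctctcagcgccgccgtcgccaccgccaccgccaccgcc
SLC2A1: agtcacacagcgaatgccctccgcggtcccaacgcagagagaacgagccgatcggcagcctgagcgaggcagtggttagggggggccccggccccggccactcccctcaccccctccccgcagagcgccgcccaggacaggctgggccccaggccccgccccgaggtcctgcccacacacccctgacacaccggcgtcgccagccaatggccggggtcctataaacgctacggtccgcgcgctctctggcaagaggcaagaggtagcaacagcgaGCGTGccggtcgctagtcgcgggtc

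Niraparib moved the glycolysis genes of WT cells in both directions. Enzymes of the pathway such as HK1, LDHA, ALDOC, PFKFB3 and PGK1 fell by 0.78, 0.68, 0.65, 0.62 and 0.48 on the log2 scale. The vessel growth factor VEGFA, the lactate carrier SLC16A1, the glucose carrier SLC2A1, the phosphofructokinase PFKP and HIF1A rose by 0.93, 0.49, 0.48, 0.46 and 0.37. Of the 37 members tested, 11 were higher and 13 lower with niraparib than with DMSO (edgeR, Benjamini-Hochberg adjusted p below 0.05, which corrects for the number of genes tested and is what passing means here), against 19.9% and 18.1% of all 22446 genes. The share past 1.5-fold was close to that of all genes, with 6 members, 2 higher and 4 lower, against 13.8%. The median log2 fold change of the members was -0.085 against -0.025 for all genes tested. In 28 of the 37 the niraparib libraries did not overlap the DMSO libraries, against 46.7% of all genes. With an unadjusted p under 0.05 stood 27 members, against 44.8%, and DESeq2 passed 24, against 37.1%. Without the libraries that stood apart 12 were higher and 14 lower in edgeR, against 42.0% of all genes either way.

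Olaparib at the same dose also moved members both ways in WT cells. PFKFB3, LDHA, HK1 and ENO1 fell by 0.61, 0.32, 0.23 and 0.22, while ENO2, the histone demethylase KDM3A, VEGFA, the MYC antagonist MXI1 and PFKP rose by 0.59, 0.57, 0.56, 0.46 and 0.45. Of 37 members tested, 12 were higher and 7 lower with olaparib than with DMSO (edgeR), against 11.2% and 7.77% of all genes, and 2 passed with more than 1.5-fold, against 4.04%. An unadjusted p under 0.05 was found for 22, against 30.2%, and DESeq2 passed 20, against 20%. The median was 0.072 against -0.017 for all genes. The count of 19 fell to 12 without WT olaparib replicate 1, with 7 higher and 5 lower, the largest drop from leaving out 1 library. Without the libraries that stood apart it was 21, 13 higher and 8 lower, against 27.8% of all genes. Both drugs were compared with the same 3 DMSO libraries, so their values are not independent.

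A direct comparison of the drugs in WT cells asked which members differed between niraparib and olaparib, PARP inhibitors of different chemical build, at equal dose and time. With niraparib, ALDOC, HK1, MXI1, PFKFB4 and KDM3A stood lower and the peptide hormone gene ADM, SLC2A1, EGLN1 and HIF1A higher than with olaparib. In edgeR, 8 members were higher and 16 lower with niraparib, against 16.1% and 16.2% of all genes, and 2 passed with more than 1.5-fold, against 8.95%. EGLN3 was 1 of these 2, at 1.15 (adjusted p 0.00863) in edgeR. Its call was lost at 0.93 without WT olaparib replicate 3 (adjusted p 0.0583). PFKFB3 and PFKP moved alike, with differences between the drugs of -0.0080 (95% interval -0.12 to 0.11) and 0.015 (-0.082 to 0.11). With plain library totals the split was 9 higher and 13 lower, and without the libraries that stood apart 8 and 18, against 39.0% of all genes either way.

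**Figure D2:**
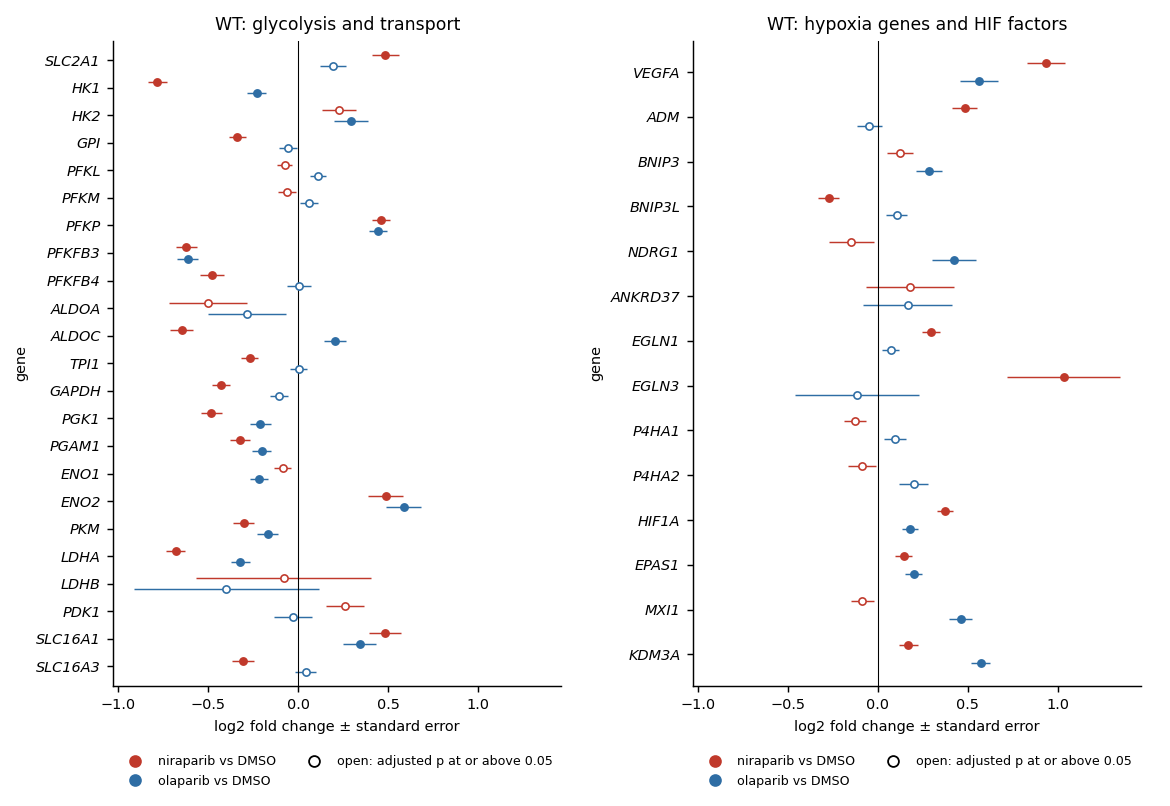
Log2 fold changes of the members in WT cells with niraparib and with olaparib against DMSO. Bars are standard errors, and filled points are members that passed. HK1 and LDHA lie lower with niraparib than with olaparib, while PFKFB3 and PFKP lie at like values with both.

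Without PARP1, niraparib left no member past the test. In edgeR 0 of 37 members passed in either direction, against 0.059% of all 22037 genes higher, 0.0499% lower and 0.0136% past 1.5-fold, with 3 members at an unadjusted p under 0.05, near the 9.13% of all genes, and 0 passing by DESeq2, against 0.472%. The low count was thus shared with all genes, of which 24 passed. The niraparib libraries lay apart from the DMSO libraries for 7 of the 37, near the share of all genes, 15.6%. Without PARP1 KO niraparib replicate 3, which stood apart, the count in edgeR was also 0, against 0.121% of all genes.

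Olaparib still moved members in PARP1 KO cells. KDM3A and MXI1 rose, and PFKFB3, the phosphoglycerate mutase PGAM1 and ENO1 fell. In edgeR 6 of 37 members were higher and 5 lower than with DMSO, against 4.42% and 3.87% of all genes. None of the 11 passed 1.5-fold, against 0.803% of all genes, while 16 of the 37 had an unadjusted p under 0.05, against 21.1%, and DESeq2 passed 12, against 9.98%. The count of 11 was 7 without PARP1 KO olaparib replicate 2 and 5 without PARP1 KO DMSO replicate 2. Set against each other in PARP1 KO cells, niraparib gave less KDM3A, ALDOC and MXI1 and more ADM, PKM, PGAM1 and ENO1 than olaparib. In edgeR 6 members were higher and 4 lower with niraparib, against 4.27% and 5.73% of all genes, and 2 passed with more than 1.5-fold, against 1.07%. EGLN3 was 1 of these 2, at 0.81 (adjusted p 0.0410). Its call was lost without any 1 of the 6 libraries compared, with adjusted p from 0.0588 to 0.114 in edgeR. Without PARP1 KO niraparib replicate 3, which stood apart, 4 were higher and 4 lower, against 9.56% of all genes either way.

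Without a drug few members passed between the 2 genotypes, although their share, 10.5%, was above that of all genes. In edgeR 3 of 38 members (ADM, SLC2A1 and ENO1) were higher and 1 (KDM3A) lower in PARP1 KO than in WT with DMSO, against 0.811% and 0.584% of all 24675 genes. None passed 1.5-fold, against 0.146%, while 14 had an unadjusted p under 0.05, against 13.6%, and DESeq2 passed 5, against 2.82%. The count of 4 was 0 without PARP1 KO DMSO replicate 1 or WT DMSO replicate 1, 1 without PARP1 KO DMSO replicate 2, PARP1 KO DMSO replicate 3 or WT DMSO replicate 3, and 2 without WT DMSO replicate 2. With only the compared groups in the fit, 1 passed. Without the libraries that stood apart 1 passed, ADM, against 0.737% of all genes.

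Whether a drug acted differently in the 2 genotypes was tested as an interaction, the change in PARP1 KO minus the change in WT. For niraparib the difference passed for 20 of 38 members in edgeR, 12 with a positive value and 8 with a negative one, against 10.4% and 12.5% of all genes. The positive values belonged to members that fell in WT cells, such as HK1, LDHA and PFKFB3, and the negative ones to genes such as VEGFA, SLC16A1, SLC2A1, HIF1A and PFKP that rose there. HK1 and VEGFA differed by more than 1.5-fold, 2 members against 8.88% of all genes. With plain library totals the split was 10 positive and 11 negative, and without the libraries that stood apart 13 positive and 6 negative, against 21.8% of all genes either way. For olaparib the interaction passed for 1 member, HK1, with a positive value, against 0.912% of all genes positive, 1.35% negative and 0.657% past 1.5-fold, while 6 members had an unadjusted p under 0.05, near the 15.7% of all genes, and DESeq2 passed 2, near the 4.1% of all genes. With plain library totals it passed for 1 positive and 1 negative member, and without the libraries that stood apart for HK1, against 2.66% of all genes. HK1 lost its call without any 1 of 9 libraries, at 0.23 without PARP1 KO olaparib replicate 1 (adjusted p 0.0580), 0.28 without PARP1 KO olaparib replicate 2 (adjusted p 0.0567), 0.26 without PARP1 KO DMSO replicate 1 (adjusted p 0.0622), 0.25 without PARP1 KO DMSO replicate 2 (adjusted p 0.0923), 0.26 without PARP1 KO DMSO replicate 3 (adjusted p 0.0636), 0.26 without WT olaparib replicate 1 (adjusted p 0.0846), 0.25 without WT olaparib replicate 2 (adjusted p 0.0955), 0.24 without WT DMSO replicate 2 (adjusted p 0.0818) and 0.25 without WT DMSO replicate 3 (adjusted p 0.0706).

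**Figure D3:**
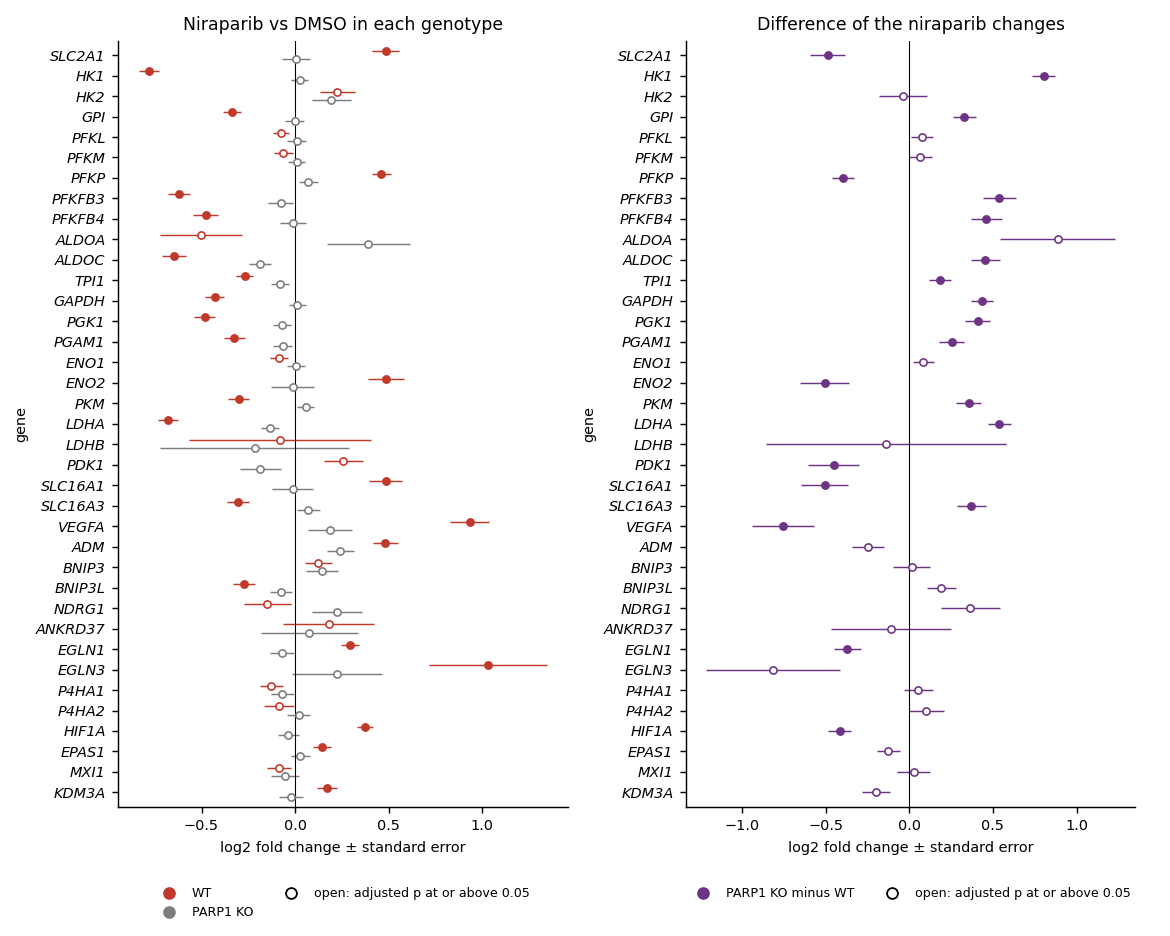
Left, log2 fold changes with niraparib in WT and in PARP1 KO cells. Right, the interaction, PARP1 KO minus WT. Bars in both panels are standard errors. Filled points passed; HK1, LDHA and PFKFB3 lie to the right of 0 in the interaction and VEGFA, ENO2 and SLC16A1 to the left.

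Glucose enters the cell and is trapped there by the first members of the pathway. SLC2A1 (ENSG00000117394, chr1:42925375-42959176, minus strand, GRCh38), the glucose carrier also known as GLUT1, had 18.7, 21.4 and 22.01 CPM in WT with DMSO and 28.6, 28.2 and 30.5 with niraparib, here and below on library totals scaled by TMM, edgeR's correction for RNA composition. All 3 niraparib libraries lay above the DMSO libraries. SLC2A1 rose by 0.48 ± 0.073 (adjusted p 1.27e-05) on the log2 scale in edgeR, where ± gives the standard error of each log2 value from here on. With olaparib it had 22.3, 25.3 and 23.5 CPM and did not pass, at 0.19 ± 0.074 (adjusted p 0.0736) in edgeR, with all 3 libraries above DMSO. In PARP1 KO cells the carrier ranged from 23.2 to 26.8 CPM with DMSO and from 24.1 to 26.2 with niraparib, which overlapped, and the interaction in edgeR was -0.49 ± 0.10 (adjusted p 4.58e-04). The PARP1 KO libraries with DMSO all lay above those of WT, by 0.29 ± 0.074 (adjusted p 0.0389) in edgeR. That difference lost its call in several edgeR fits, at 0.29 with only the compared groups fitted (adjusted p 0.0941), 0.27 without PARP1 KO DMSO replicate 1 (adjusted p 0.137), 0.25 without PARP1 KO DMSO replicate 3 (adjusted p 0.209), 0.23 without WT DMSO replicate 1 (adjusted p 0.320), 0.32 without WT DMSO replicate 2 (adjusted p 0.0564) and 0.22 without the libraries that stood apart (adjusted p 0.184). The printed SLC2A1 promoter is the one with a single core near its 3′ end.

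HK1 (ENSG00000156515, chr10:69269984-69401884, plus strand), the hexokinase most tissues use to trap glucose, had 374, 401 and 395 CPM in WT with DMSO, 242, 209 and 229 with niraparib and 332, 328 and 335 with olaparib. Every niraparib library was below every olaparib library, and these in turn below DMSO. HK1 fell with niraparib by 0.78 ± 0.053 (adjusted p 1.20e-10) in edgeR. The fall with olaparib was smaller, and HK1 fell by 0.23 ± 0.053 (adjusted p 0.00338) in edgeR with all 3 libraries below DMSO. Niraparib gave less HK1 than olaparib, with a difference of -0.55 ± 0.053 (adjusted p 4.62e-08) in edgeR and no overlap. In PARP1 KO cells HK1 had 387, 380.4 and 385 CPM with DMSO, 405, 386 and 379.5 with niraparib and 406, 382 and 386 with olaparib, with all 3 groups overlapping. The fold change with niraparib there was 0.026 ± 0.046 (adjusted p 0.915) in edgeR, and the interaction was 0.80 ± 0.069 (adjusted p 3.36e-11).

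HK2, the hexokinase that tumours and muscle favour and that hypoxia induces, was far below HK1. Its share of hexokinase TPM (HK1 and HK2 together) was 2.99% ± 0.221 (SD, n = 3) in WT with DMSO, 5.84% ± 0.504 with niraparib and 4.23% ± 0.0754 with olaparib. In PARP1 KO it was 3.21% ± 0.281, 3.59% ± 0.294 and 3.61% ± 0.461 in the same order. HK2 itself had 11.1, 10.97 and 12.6 CPM in WT with DMSO, 13.7, 11.8 and 15.1 with niraparib and 14.4, 13.8 and 14.2 with olaparib. The niraparib libraries overlapped DMSO and the olaparib libraries did not. HK2 did not pass with niraparib, at 0.23 ± 0.094 (adjusted p 0.0652) in edgeR, but passed in other edgeR fits at 0.32 with plain library totals (adjusted p 0.00835), 0.32 without WT niraparib replicate 2 (adjusted p 0.00929), 0.29 without WT DMSO replicate 3 (adjusted p 0.0398) and 0.30 without the libraries that stood apart (adjusted p 0.00686). It rose with olaparib by 0.29 ± 0.095 (adjusted p 0.0324) in edgeR. The call with olaparib was lost at 0.27 without WT olaparib replicate 1 (adjusted p 0.118), 0.31 without WT olaparib replicate 2 (adjusted p 0.0619), 0.29 without WT olaparib replicate 3 (adjusted p 0.0898), 0.27 without WT DMSO replicate 1 (adjusted p 0.0662) and 0.26 without WT DMSO replicate 2 (adjusted p 0.119) in edgeR. The 9 PARP1 KO libraries ran from 11.2 to 15.7 CPM, with drug and DMSO libraries overlapping.

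The next steps commit the sugar to glycolysis, and their genes went different ways. Glucose-6-phosphate isomerase GPI fell with niraparib in WT by 0.34 ± 0.049 (adjusted p 7.55e-06) in edgeR, with all 3 libraries below DMSO, and its interaction was 0.33 ± 0.070 (adjusted p 4.26e-04). PFKL, PFKM and PFKP encode the liver, muscle and platelet forms of phosphofructokinase, the enzyme of the committed step. PFKP had 113, 125 and 124 CPM in WT with DMSO, 172, 167 and 162 with niraparib and 164, 168 and 162 with olaparib. Each drug group stood clear above DMSO, and the drug groups overlapped each other. PFKP rose by 0.46 ± 0.050 (adjusted p 1.38e-07) with niraparib and by 0.45 ± 0.050 (adjusted p 1.58e-06) with olaparib in edgeR. In PARP1 KO it had 136, 129.8 and 127 CPM with DMSO, 133, 137 and 141 with niraparib and 151, 149 and 154 with olaparib. The rise with olaparib there was 0.21 ± 0.049 (adjusted p 0.00904) in edgeR with no overlap, and 0.21 without PARP1 KO DMSO replicate 2 (adjusted p 0.0533) was the fit that lost it. The niraparib interaction was -0.40 ± 0.068 (adjusted p 2.63e-05) in edgeR. PFKL and PFKM did not pass against DMSO with either drug in either genotype, with log2 fold changes from -0.075 to 0.11 for PFKL, except that PFKL with olaparib in WT was 0.11 with plain library totals (adjusted p 0.0399), 0.11 without the libraries that stood apart (adjusted p 0.00535) and 0.11 by DESeq2 (adjusted p 0.0261).

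The make-up of phosphofructokinase RNA moved with it. PFKP made up 29.7, 30.9 and 30.9% of the TPM of the 3 forms in WT with DMSO, 39.2, 39.1 and 38.04% with niraparib and 36.2, 36.2 and 35.5% with olaparib. In PARP1 KO the shares were 31.8, 31.5 and 31.4% with DMSO, 31.9, 32.4 and 33.2% with niraparib and 34.3, 34.2 and 34.6% with olaparib. The mean thus went from 30.5% ± 0.695 to 38.8% ± 0.655 with niraparib in WT and from 31.6% ± 0.190 to 32.5% ± 0.697 in PARP1 KO (SD, n = 3). No group overlapped the group it was compared with in the 7 comparisons of this share. An exact permutation test of 3 against 3 libraries gave p = 0.1 for each, the smallest it can give, and the difference between genotypes in the change was not tested.

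**Figure D4:**
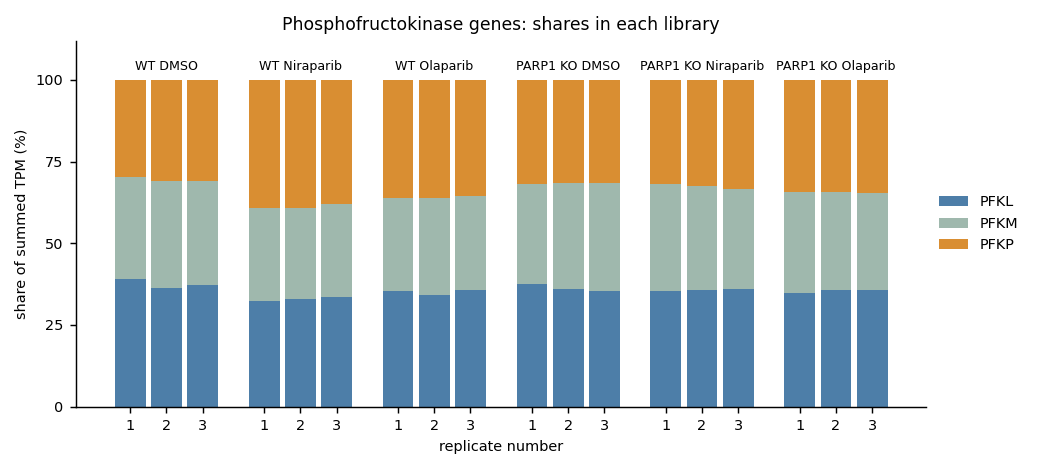
Share of phosphofructokinase TPM (PFKL, PFKM and PFKP together) that came from each gene, as a stacked bar for each library. The share of PFKP is highest in WT with niraparib, at a mean of 38.8%.

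PFKFB3 and PFKFB4 encode enzymes that make and break fructose 2,6-bisphosphate, the activator of phosphofructokinase. PFKFB3 (ENSG00000170525, chr10:6144934-6254644, plus strand) had 623, 594 and 605 CPM in WT with DMSO, 404, 354 and 426 with niraparib and 382, 419 and 386 with olaparib. Both drug groups lay well below DMSO and overlapped each other. PFKFB3 fell by 0.62 ± 0.059 (adjusted p 2.81e-08) with niraparib and by 0.61 ± 0.059 (adjusted p 2.72e-07) with olaparib in edgeR. In PARP1 KO the counts were 725, 668 and 641 CPM with DMSO, 626, 629.6 and 664 with niraparib and 468, 557 and 579 with olaparib. Only the olaparib libraries of this genotype lay wholly below DMSO, and PFKFB3 fell there by 0.34 ± 0.067 (adjusted p 0.00459) in edgeR. The interaction in edgeR was 0.54 ± 0.10 (adjusted p 3.27e-04) for niraparib. For olaparib the interaction was 0.27 ± 0.10 (adjusted p 0.167) in edgeR and did not pass, but other fits gave 0.28 with no filter on low counts (adjusted p 0.00480) and 0.36 without PARP1 KO olaparib replicate 1 (adjusted p 0.0106). PFKFB4, which hypoxia induces, had 27.9, 26.96 and 25.8 CPM in WT with DMSO, 20.2, 18.7 and 19.1 with niraparib and 27.8, 26.8 and 26.1 with olaparib. It fell with niraparib by 0.48 ± 0.066 (adjusted p 4.15e-06) in edgeR with no overlap, and its olaparib value was 0.0036 ± 0.065 (adjusted p 0.978) with overlap. The PARP1 KO libraries of PFKFB4 ran from 22.9 to 26.7 CPM and its niraparib interaction in edgeR was 0.46 ± 0.094 (adjusted p 2.63e-04).

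Aldolase splits the 6-carbon sugar, and the rest of the pathway makes ATP from the pieces. ALDOC, the aldolase known from brain, had 70.9, 74.0 and 71.5 CPM in WT with DMSO, 50.3, 41.8 and 46.4 with niraparib and 88.2, 79.2 and 81.2 with olaparib. The drugs moved it apart, with niraparib libraries all below DMSO and olaparib libraries all above. ALDOC fell with niraparib by 0.65 ± 0.063 (adjusted p 3.41e-08) in edgeR. With olaparib it rose by 0.20 ± 0.062 (adjusted p 0.0234) in edgeR, a call lost at 0.15 without WT olaparib replicate 1 (adjusted p 0.170), 0.22 without WT olaparib replicate 3 (adjusted p 0.0564) and 0.20 without WT DMSO replicate 3 (adjusted p 0.0799). Niraparib and olaparib differed by -0.85 ± 0.063 (adjusted p 1.31e-09) in edgeR. In PARP1 KO the counts were 62.4, 63.4 and 62.9 CPM with DMSO, 58.7, 52.8 and 53.7 with niraparib and 79.5, 70.8 and 73.2 with olaparib, ordered as in WT and without overlap. The fall with niraparib did not pass there, at -0.19 ± 0.059 (adjusted p 0.273) in edgeR, and the interaction was 0.45 ± 0.086 (adjusted p 1.09e-04). The rise with olaparib in PARP1 KO was 0.24 ± 0.058 (adjusted p 0.0117) in edgeR, and was lost at 0.19 without PARP1 KO olaparib replicate 1 (adjusted p 0.0570) and 0.25 without PARP1 KO DMSO replicate 2 (adjusted p 0.0520). The ALDOC promoter printed among the sequences holds 5 cores.

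Further down the pathway, PGK1, the first enzyme that makes ATP, had 297, 328 and 325 CPM in WT with DMSO, 229.6, 206 and 245 with niraparib and 271, 276 and 272 with olaparib. All libraries of both drugs were below DMSO. PGK1 fell by 0.48 ± 0.056 (adjusted p 4.56e-07) with niraparib in edgeR. It fell by 0.21 ± 0.056 (adjusted p 0.0110) with olaparib in edgeR, a call lost at -0.21 without WT olaparib replicate 3 (adjusted p 0.0541), -0.18 without WT DMSO replicate 2 (adjusted p 0.0633) and -0.19 without WT DMSO replicate 3 (adjusted p 0.0535). Its PARP1 KO libraries ran from 332 to 359 CPM with DMSO and from 314 to 336 with niraparib, which overlapped, and the interaction in edgeR was 0.41 ± 0.074 (adjusted p 5.68e-05). GAPDH, TPI1, PGAM1 and PKM also fell with niraparib in WT, each with all 3 libraries below DMSO in edgeR and with log2 fold changes of -0.43, -0.27, -0.32 and -0.30. TPI1 was -0.18 with plain library totals (adjusted p 0.00241) in edgeR. GAPDH and PKM had interaction values of 0.44 and 0.35 that passed.

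The enolases, which make phosphoenolpyruvate, split by form. ENO1, the form of most tissues, had 968, 1037 and 1037 CPM in WT with DMSO, 957, 936 and 976 with niraparib and 861, 896 and 854 with olaparib. The niraparib libraries overlapped DMSO and the olaparib libraries lay below it. ENO1 did not pass with niraparib, at -0.085 ± 0.048 (adjusted p 0.178) in edgeR, but was -0.100 without the libraries that stood apart (adjusted p 0.00720), and fell with olaparib by 0.22 ± 0.048 (adjusted p 0.00230). In PARP1 KO it had 1154, 1129 and 1154 CPM with DMSO, 1114, 1155 and 1169.6 with niraparib and 954, 991 and 1037 with olaparib, and it fell with olaparib by 0.21 ± 0.047 (adjusted p 0.00869) in edgeR with no overlap. With DMSO the PARP1 KO libraries lay above WT by 0.18 ± 0.046 (adjusted p 0.0415) in edgeR. That call was lost without any 1 of the 6 DMSO libraries and in other fits, at 0.18 with only the compared groups fitted (adjusted p 0.0735), 0.17 without PARP1 KO DMSO replicate 1 (adjusted p 0.130), 0.19 without PARP1 KO DMSO replicate 2 (adjusted p 0.106), 0.17 without PARP1 KO DMSO replicate 3 (adjusted p 0.139), 0.14 without WT DMSO replicate 1 (adjusted p 0.301), 0.19 without WT DMSO replicate 2 (adjusted p 0.0600), 0.19 without WT DMSO replicate 3 (adjusted p 0.0615) and 0.14 without the libraries that stood apart (adjusted p 0.104). ENO2, the form known from neurons, had 6.50, 7.09 and 7.203 CPM in WT with DMSO, 9.01, 10.4 and 9.80 with niraparib and 9.85, 10.5 and 10.9 with olaparib. Every drug library was above every DMSO library, and ENO2 rose by 0.49 ± 0.099 (adjusted p 3.78e-04) with niraparib and 0.59 ± 0.099 (adjusted p 2.04e-04) with olaparib in edgeR. PARP1 KO libraries of ENO2 ran from 7.04 to 7.67 CPM with DMSO, from 6.34 to 8.34 with niraparib and from 8.50 to 8.79 with olaparib. The niraparib interaction was -0.51 ± 0.15 (adjusted p 0.0101) in edgeR, and it was -0.40 without PARP1 KO niraparib replicate 3 (adjusted p 0.0513) and -0.31 without the libraries that stood apart (adjusted p 0.191).

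Pyruvate has several fates, and the gene for its conversion to lactate fell. LDHA (ENSG00000134333, chr11:18394560-18408425, plus strand), the lactate dehydrogenase subunit that hypoxia induces, had 294, 315 and 316 CPM in WT with DMSO, 196, 180.3 and 202 with niraparib and 244, 259 and 236 with olaparib. The groups were ordered DMSO, olaparib, niraparib from high to low with no overlap. LDHA fell by 0.68 ± 0.052 (adjusted p 8.59e-10) with niraparib and by 0.32 ± 0.052 (adjusted p 1.31e-04) with olaparib in edgeR, and the drugs differed by -0.36 ± 0.052 (adjusted p 1.16e-05). PARP1 KO cells had 318, 321 and 337 CPM with DMSO, 301, 304 and 281 with niraparib and 293, 277 and 290.5 with olaparib. Both drug groups lay below DMSO there, too. The niraparib value in PARP1 KO did not pass, at -0.14 ± 0.049 (adjusted p 0.373) in edgeR, and the interaction was 0.54 ± 0.071 (adjusted p 2.85e-07). LDHA fell with olaparib in PARP1 KO by 0.18 ± 0.049 (adjusted p 0.0212) in edgeR, a call lost at -0.17 without PARP1 KO olaparib replicate 2 (adjusted p 0.0868), -0.19 without PARP1 KO DMSO replicate 2 (adjusted p 0.0828) and -0.15 without PARP1 KO DMSO replicate 3 (adjusted p 0.125). LDHA made up more than 99% of LDHA and LDHB TPM in each group mean, from 99.6% to 99.8%, and the LDHA promoter, with 6 cores, is the richest of those printed.

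PDK1 encodes a kinase that shuts off pyruvate dehydrogenase, an enzyme of mitochondria. It had 7.90, 9.27 and 8.87 CPM in WT with DMSO, 9.85, 9.69 and 11.8 with niraparib and 8.55, 7.88 and 9.18 with olaparib. The niraparib libraries lay above DMSO, but PDK1 did not pass, at 0.26 ± 0.11 (adjusted p 0.0588) in edgeR. Other edgeR fits passed it, at 0.35 with plain library totals (adjusted p 0.00946) and 0.31 without WT niraparib replicate 2 (adjusted p 0.0356). In PARP1 KO the counts were 10.4, 10.7 and 12.1 CPM with DMSO and 10.2, 10.1 and 8.95 with niraparib, with the niraparib libraries all lower. PDK1 differed between genotypes in its niraparib change by -0.45 ± 0.15 (adjusted p 0.0270) in edgeR. This call was lost at -0.39 without PARP1 KO niraparib replicate 3 (adjusted p 0.0801), -0.38 without PARP1 KO DMSO replicate 3 (adjusted p 0.0935), -0.38 without WT niraparib replicate 3 (adjusted p 0.0845), -0.39 without WT DMSO replicate 1 (adjusted p 0.0695) and -0.39 without the libraries that stood apart (adjusted p 0.0927). SLC16A1, the lactate carrier MCT1, had 8.87, 10.1 and 10.3 CPM in WT with DMSO, 13.1, 13.6 and 14.4 with niraparib and 13.1, 12.4 and 11.7 with olaparib, both drugs above DMSO. It rose by 0.49 ± 0.089 (adjusted p 1.28e-04) with niraparib and 0.34 ± 0.090 (adjusted p 0.00955) with olaparib in edgeR, and the olaparib value was 0.30 without WT olaparib replicate 1 (adjusted p 0.0647). In PARP1 KO it ran from 10.4 to 12.4 CPM with DMSO and from 10.3 to 11.8 with niraparib, and the interaction was -0.51 ± 0.14 (adjusted p 0.00713) in edgeR. SLC16A3, the carrier MCT4 that exports lactate from glycolytic cells, went the other way and fell with niraparib in WT by 0.31 ± 0.059 (adjusted p 2.01e-04) in edgeR, with all 3 libraries below DMSO and an interaction of 0.37 ± 0.085 (adjusted p 9.86e-04).

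**Figure D5:**
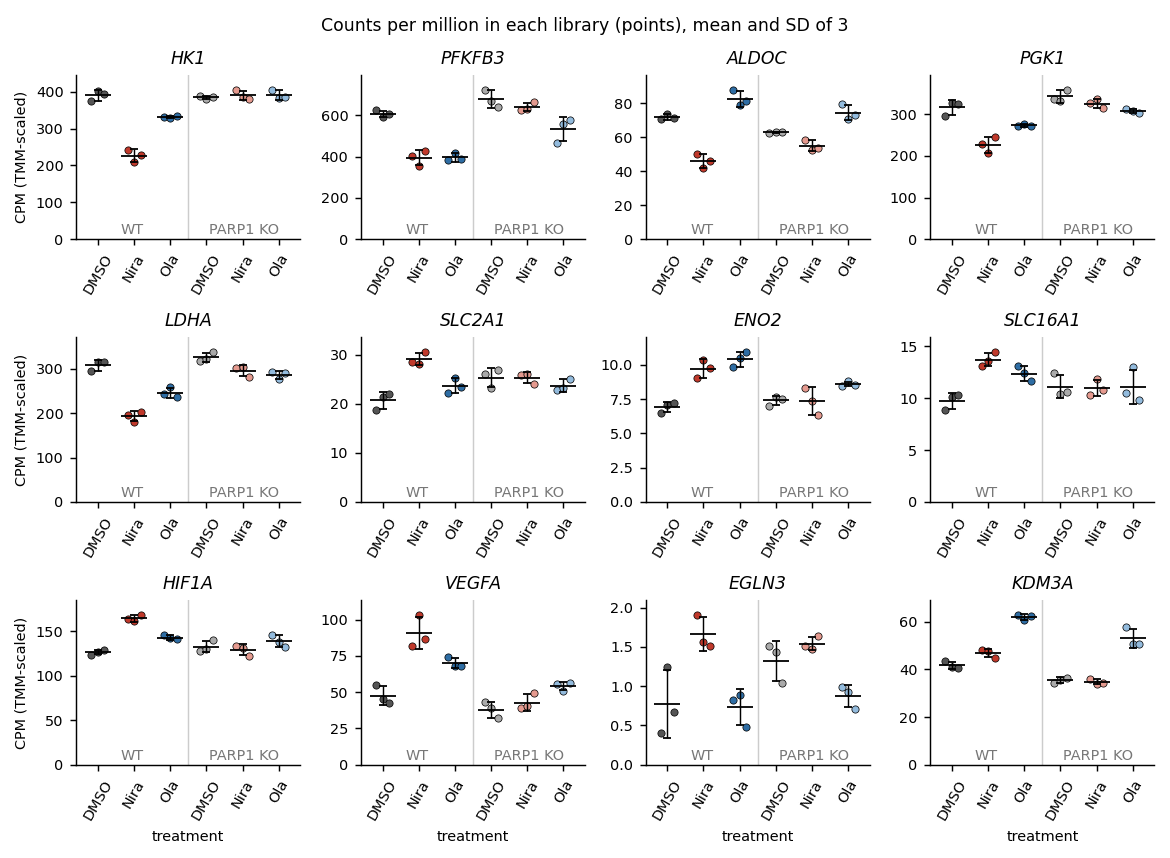
CPM of 12 members in the 18 libraries, with points for libraries and bars for mean and SD of the 3 libraries of each group. HK1, PFKFB3, ALDOC, PGK1 and LDHA stand lower with niraparib in WT, and SLC2A1, ENO2, SLC16A1, HIF1A and VEGFA higher.

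The transcription factors of the hypoxia response rose slightly in RNA. HIF1A (ENSG00000100644, chr14:61695513-61748259, plus strand), the oxygen-sensitive subunit of HIF-1, had 124, 127 and 129 CPM in WT with DMSO, 164, 162 and 168 with niraparib and 146, 142 and 141 with olaparib. The groups stood in the order DMSO, olaparib, niraparib from low to high with no overlap. HIF1A rose by 0.37 ± 0.044 (adjusted p 4.42e-07) with niraparib and by 0.18 ± 0.044 (adjusted p 0.00619) with olaparib in edgeR. The PARP1 KO libraries held 129, 130.3 and 140.5 CPM with DMSO, 134, 132 and 122 with niraparib and 146, 139 and 132 with olaparib, all overlapping. The niraparib interaction was -0.42 ± 0.070 (adjusted p 1.74e-05) in edgeR. EPAS1, the subunit of HIF-2, had 95.2, 93.5 and 93.3 CPM in WT with DMSO, 104, 100.2 and 108 with niraparib and 104, 109.7 and 109.8 with olaparib. It rose by 0.15 ± 0.047 (adjusted p 0.0178) with niraparib and 0.20 ± 0.047 (adjusted p 0.00437) with olaparib in edgeR, all drug libraries above DMSO. The niraparib value of EPAS1 was 0.24 with plain library totals (adjusted p 1.13e-04), 0.12 without WT niraparib replicate 3 (adjusted p 0.0915), 0.14 without WT DMSO replicate 2 (adjusted p 0.0514) and 0.14 without WT DMSO replicate 3 (adjusted p 0.0625). The protein of these factors is set by oxygen, and RNA alone does not show it.

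The prolyl hydroxylases EGLN1 and EGLN3 mark the factors for breakdown, and hypoxia induces both. EGLN1 rose with niraparib in WT by 0.30 ± 0.049 (adjusted p 3.73e-05) in edgeR, with 3 of 3 libraries above DMSO, and its interaction was -0.37 ± 0.081 (adjusted p 6.19e-04). EGLN3 was near the limit of the counts, with 12, 64 and 27 counts in WT with DMSO and 64, 87 and 61 with niraparib, or 0.4001, 1.24 and 0.673 and 1.90, 1.57 and 1.51 CPM. The niraparib libraries lay above DMSO, and EGLN3 rose by 1.03 ± 0.32 (adjusted p 0.0125) in edgeR. Leaving out 1 library gave 0.93 without WT niraparib replicate 1 (adjusted p 0.0570), 1.59 without WT DMSO replicate 2 (adjusted p 8.59e-04) and 0.92 without WT DMSO replicate 3 (adjusted p 0.0572). Its PARP1 KO libraries held 1.51, 1.44 and 1.03 CPM with DMSO and 1.51, 1.48 and 1.63 with niraparib, which overlapped. The interaction of EGLN3 did not pass, at -0.81 ± 0.40 (adjusted p 0.152) in edgeR, but was -1.37 without WT DMSO replicate 2 (adjusted p 0.0127).

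Among the products of the hypoxia response, VEGFA (ENSG00000112715, chr6:43770184-43786487, plus strand), the growth factor for blood vessels, had 55.2, 45.0 and 42.8 CPM in WT with DMSO, 81.9, 103.1 and 87.0 with niraparib and 73.9, 68.0 and 68.0 with olaparib. All niraparib libraries lay above olaparib, and these above DMSO. VEGFA rose by 0.93 ± 0.11 (adjusted p 5.37e-05) with niraparib and by 0.56 ± 0.11 (adjusted p 0.00477) with olaparib in edgeR. Knockout cells held 43.0, 38.8 and 32.1 CPM with DMSO, 38.8, 40.3 and 49.6 with niraparib and 55.9, 50.7 and 56.0 with olaparib. Olaparib libraries stood above DMSO there and niraparib libraries overlapped it. VEGFA rose with olaparib in PARP1 KO by 0.51 ± 0.12 (adjusted p 0.0234) in edgeR. That call was lost at 0.49 without PARP1 KO olaparib replicate 1 (adjusted p 0.105), 0.55 without PARP1 KO olaparib replicate 2 (adjusted p 0.0505), 0.49 without PARP1 KO olaparib replicate 3 (adjusted p 0.0764) and 0.53 without PARP1 KO DMSO replicate 2 (adjusted p 0.0525). The niraparib value in PARP1 KO was 0.19 ± 0.12 (adjusted p 0.699) in edgeR, and the interaction was -0.75 ± 0.19 (adjusted p 0.00899).

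ADM, which encodes the vessel-widening peptide adrenomedullin, had 26.6, 30.1 and 26.1 CPM in WT with DMSO, 37.2, 40.3 and 38.5 with niraparib and 27.6, 27.8 and 24.7 with olaparib. Niraparib libraries were above the others, and olaparib libraries overlapped DMSO. ADM rose with niraparib by 0.48 ± 0.068 (adjusted p 5.77e-06) in edgeR, and niraparib exceeded olaparib by 0.53 ± 0.069 (adjusted p 2.79e-06). The knockout had 35.0, 34.1 and 33.5 CPM with DMSO, 38.7, 38.3 and 43.9 with niraparib and 27.6, 30.6 and 31.6 with olaparib, again without overlap between the drugs, which differed by 0.44 ± 0.070 (adjusted p 4.22e-04) in edgeR. The niraparib interaction did not pass, at -0.25 ± 0.098 (adjusted p 0.0666) in edgeR, but was -0.32 with plain library totals (adjusted p 0.0150), -0.31 without PARP1 KO niraparib replicate 3 (adjusted p 0.0183), -0.30 without WT niraparib replicate 1 (adjusted p 0.0404) and -0.32 without WT DMSO replicate 2 (adjusted p 0.0211). With DMSO the PARP1 KO libraries lay above WT by 0.31 ± 0.070 (adjusted p 0.0184) in edgeR, a call lost at 0.29 without PARP1 KO DMSO replicate 1 (adjusted p 0.0896), 0.31 without PARP1 KO DMSO replicate 2 (adjusted p 0.0770), 0.28 without WT DMSO replicate 1 (adjusted p 0.130) and 0.27 without WT DMSO replicate 3 (adjusted p 0.0957).

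KDM3A and MXI1 followed olaparib more than niraparib. KDM3A, a histone demethylase that hypoxia induces, had 43.5, 41.2 and 40.7 CPM in WT with DMSO, 48.1, 47.9 and 45.0 with niraparib and 62.8, 60.6 and 62.4 with olaparib. Olaparib libraries stood highest, with niraparib libraries between them and DMSO. KDM3A rose with olaparib by 0.57 ± 0.054 (adjusted p 1.54e-07) in edgeR. With niraparib it rose by 0.17 ± 0.054 (adjusted p 0.0152) in edgeR, and was 0.26 with plain library totals (adjusted p 3.10e-04), 0.15 without WT niraparib replicate 1 (adjusted p 0.0644) and 0.15 without WT DMSO replicate 3 (adjusted p 0.0701). In knockout libraries it had 34.3, 35.8 and 36.5 CPM with DMSO, 36.1, 34.0 and 34.4 with niraparib and 57.8, 50.7 and 50.7 with olaparib, and rose with olaparib by 0.58 ± 0.065 (adjusted p 2.59e-05) in edgeR with no overlap. The olaparib interaction of KDM3A was 0.0098 ± 0.082 (adjusted p 0.983) in edgeR, with a 95% interval of -0.15 to 0.17. With DMSO its PARP1 KO libraries lay below WT, with a difference of -0.23 ± 0.059 (adjusted p 0.0360) in edgeR, and the call was lost at -0.23 with only the compared groups fitted (adjusted p 0.0684), -0.21 without PARP1 KO DMSO replicate 1 (adjusted p 0.149), -0.24 without PARP1 KO DMSO replicate 2 (adjusted p 0.113), -0.25 without PARP1 KO DMSO replicate 3 (adjusted p 0.0743), -0.21 without WT DMSO replicate 1 (adjusted p 0.237), -0.24 without WT DMSO replicate 2 (adjusted p 0.0647), -0.25 without WT DMSO replicate 3 (adjusted p 0.0544) and -0.21 without the libraries that stood apart (adjusted p 0.107).

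MXI1, an antagonist of the growth regulator MYC, had 25.6, 26.4 and 25.4 CPM in WT with DMSO, 24.2, 23.5 and 25.4 with niraparib and 37.4, 34.1 and 34.8 with olaparib. Olaparib libraries were high, while niraparib libraries were just under DMSO. MXI1 rose with olaparib by 0.46 ± 0.062 (adjusted p 1.62e-05) in edgeR and had a niraparib value of -0.086 ± 0.063 (adjusted p 0.315), which did not pass. PARP1 KO libraries of MXI1 held 24.3, 23.5 and 25.3 CPM with DMSO, 25.02, 23.5 and 21.8 with niraparib and 34.0, 30.5 and 29.5 with olaparib. The olaparib group was again clear of the others, with a rise of 0.36 ± 0.074 (adjusted p 0.00376) in edgeR. Its olaparib interaction was -0.095 ± 0.096 (adjusted p 0.674) in edgeR, with a 95% interval of -0.28 to 0.093.

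Besides EGLN1, the members of the hypoxia response not given by library were BNIP3 and BNIP3L, which direct mitochondria to breakdown, the stress gene NDRG1, ANKRD37, and the collagen prolyl hydroxylases P4HA1 and P4HA2. BNIP3L fell with niraparib in WT by 0.27 ± 0.059 (adjusted p 7.32e-04) in edgeR, with all 3 libraries below DMSO, and was -0.18 with plain library totals (adjusted p 0.0115). BNIP3 rose with olaparib in WT by 0.29 ± 0.072 (adjusted p 0.00673) in edgeR with no overlap, and was 0.22 without WT olaparib replicate 1 (adjusted p 0.0697). NDRG1 rose with olaparib in WT by 0.42 ± 0.12 (adjusted p 0.0179) in edgeR with no overlap, and was 0.42 without WT olaparib replicate 1 (adjusted p 0.0598), 0.37 without WT olaparib replicate 3 (adjusted p 0.0905) and 0.40 without WT DMSO replicate 3 (adjusted p 0.0656). In PARP1 KO it rose with olaparib by 0.44 ± 0.13 (adjusted p 0.0395) in edgeR with no overlap, a call lost at 0.40 without PARP1 KO olaparib replicate 1 (adjusted p 0.111), 0.40 without PARP1 KO olaparib replicate 2 (adjusted p 0.1502), 0.45 without PARP1 KO DMSO replicate 1 (adjusted p 0.0876), 0.39 without PARP1 KO DMSO replicate 2 (adjusted p 0.161) and 0.48 without PARP1 KO DMSO replicate 3 (adjusted p 0.0757). The other values of these 6 genes against DMSO with niraparib in WT, which did not pass, ran from -0.15 for NDRG1 to 0.18 for ANKRD37. Calls were gained in other edgeR fits by BNIP3 at 0.22 with plain library totals (adjusted p 0.0143), by P4HA1 at -0.16 without WT DMSO replicate 1 (adjusted p 0.0461) and by P4HA2, from -0.088, at -0.18 without WT DMSO replicate 1 (adjusted p 0.0221).

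Around these 38 genes, 8 lists of related genes, 132 genes in all, were read from the same fits. With niraparib in WT 19.9% of all genes rose and 18.1% fell in edgeR, the shares against which the counts of each list stand. The list of pyruvate entry to mitochondria holds carriers of that step and enzymes that use pyruvate there. It also holds kinases that inhibit pyruvate dehydrogenase and phosphatases that restore it, so its count has no single direction in function. Of its 14 tested genes 10 fell with niraparib in WT in edgeR and 0 rose (10 had an unadjusted p under 0.05, against 44.8% of all genes, and DESeq2 gave 10 lower and 0 higher, against 37.1% either way), with a median of -0.22 against -0.025 for all genes. PDHB, a subunit of pyruvate dehydrogenase, went from 201 ± 12.8 to 119.8 ± 10.1 CPM (SD, n = 3) and fell by 0.75 ± 0.063 (adjusted p 1.85e-08) in edgeR with no overlap. PDK3, a sister kinase of PDK1 on the inhibiting side, fell by 0.48 ± 0.057 (adjusted p 5.36e-07) in edgeR, from 75.1 ± 2.92 to 54.1 ± 3.29 CPM with no overlap, and the kinase PDK2 and the phosphatase PDP2 fell by 0.42 ± 0.064 (adjusted p 1.27e-05) and 0.47 ± 0.071 (adjusted p 3.52e-05). In the tricarboxylic acid cycle 1 of 16 tested genes rose and 7 fell with niraparib in WT, with a median of -0.11 against -0.025. The complex II subunit SDHC went from 188 ± 5.14 to 141 ± 10.9 CPM and fell by 0.41 ± 0.053 (adjusted p 1.49e-06) in edgeR, while IDH3A, of isocitrate dehydrogenase, went from 64.6 ± 1.29 to 83.5 ± 3.22 CPM and rose by 0.37 ± 0.048 (adjusted p 1.71e-06), neither overlapping DMSO. In the pentose phosphate pathway, the branch that makes NADPH and ribose, 2 of 8 genes rose and 4 fell, with a median of -0.12 against -0.025. Transaldolase TALDO1 went from 141 ± 7.82 to 100.1 ± 6.47 CPM and fell by 0.50 ± 0.054 (adjusted p 1.32e-07) in edgeR with no overlap.

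Other glycolytic genes, such as further carriers and isozymes, counted 1 higher and 5 lower of 14 tested with niraparib in WT, against 19.9% and 18.1% of all genes, with a median of -0.096 against -0.025. SLC2A4, the insulin-sensitive glucose carrier, went from 2.57 ± 0.506 to 1.099 ± 0.172 CPM (SD, n = 3) and fell by 1.23 ± 0.20 (adjusted p 4.36e-05) in edgeR with no overlap. LDHD, a mitochondrial dehydrogenase of D-lactate, fell by 0.72 ± 0.060 (adjusted p 3.21e-09) in edgeR with no overlap. Of 10 tested genes of gluconeogenesis and glycogen 5 fell and 0 rose with niraparib in edgeR (6 had an unadjusted p under 0.05, against 44.8% of all genes, and DESeq2 gave 5 lower and 0 higher, against 37.1% either way), with a median of -0.17 against -0.025. FBP1, which reverses the phosphofructokinase step, fell by 0.39 ± 0.076 (adjusted p 3.63e-04) in edgeR with no overlap, from 43.1 ± 3.96 to 33.1 ± 3.34 CPM.

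Genes of oxygen sensing and partners of the factors counted 7 higher and 4 lower of 16 with niraparib in WT, against 19.9% and 18.1% of all genes, with a median of 0.14 against -0.025. CREBBP and EP300, coactivators that the factors recruit, rose by 1.01 ± 0.061 (adjusted p 6.14e-11) and 0.39 ± 0.063 (adjusted p 5.65e-05) in edgeR, each with no overlap. CITED2, which competes with the factors for those coactivators, went from 296 ± 16.1 to 176 ± 6.92 CPM (SD, n = 3) and fell by 0.76 ± 0.050 (adjusted p 8.27e-11) in edgeR with no overlap. VHL, the ligase subunit that destroys the factors, rose by 0.45 ± 0.047 (adjusted p 1.02e-07) in edgeR with no overlap. With olaparib in WT the same list counted 5 higher and 2 lower, against 11.2% and 7.77% of all genes. Of 35 other genes known to be induced by hypoxia, 6 rose and 14 fell with niraparib in WT, with a median of -0.22 against -0.025, and 6 rose and 7 fell with olaparib, with a median of -0.011 against -0.017. The 6 that rose with niraparib were a share no higher than that of all genes. The secreted stanniocalcins STC2 and STC1 and MIR210HG, the host transcript of a microRNA that hypoxia induces, fell by 1.17, 1.09 and 1.02 with niraparib. With olaparib they fell by 0.65, 0.80 and 1.09, without overlap with DMSO for either drug. NFIL3, a bZIP repressor, rose by 1.08 ± 0.070 (adjusted p 6.41e-11) with niraparib in edgeR, from 12.4 ± 0.497 to 26.3 ± 0.982 CPM with no overlap.

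The list of glucose-responsive and other metabolic regulators moved mostly upward, with 9 higher and 1 lower of 14 with niraparib in WT, against 19.9% and 18.1% of all genes, and 8 higher and 1 lower with olaparib, against 11.2% and 7.77%. Their median was 0.20 against -0.025 for all genes with niraparib and 0.18 against -0.017 with olaparib. TXNIP, an inhibitor of glucose uptake that glucose itself induces, had 99.5, 101 and 99.9 CPM in WT with DMSO, 245, 233 and 232 with niraparib and 190.2, 165 and 179 with olaparib. Both drug groups lay above DMSO, and TXNIP rose by 1.24 ± 0.052 (adjusted p 5.56e-14) and 0.84 ± 0.052 (adjusted p 6.03e-10) in edgeR. ARRDC4, its close relative, rose by 1.33 ± 0.10 (adjusted p 5.84e-10) with niraparib and by 0.53 ± 0.10 (adjusted p 7.82e-04) with olaparib in edgeR, with no overlap. Their niraparib interactions in edgeR were -1.12 ± 0.21 (adjusted p 0.00160) for TXNIP and -1.49 ± 0.16 (adjusted p 7.62e-09) for ARRDC4. MLX, the partner of the glucose-sensing factor ChREBP, fell with niraparib by 0.59 ± 0.052 (adjusted p 7.55e-09) in edgeR with no overlap.

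In PARP1 KO cells niraparib passed 0 genes of each of the 8 lists in edgeR and 0 by DESeq2, with an unadjusted p under 0.05 for 2 other glycolytic genes, 0 of pyruvate entry, 1 of the tricarboxylic acid cycle, 1 of the pentose phosphate pathway, 2 of gluconeogenesis and glycogen, 2 of oxygen sensing, 2 other hypoxia-induced genes and 1 regulator. Of all genes 9.13% had such a p and 0.472% passed by DESeq2. The niraparib interaction passed with a positive value for 10.4% of all genes and a negative one for 12.5%. Among the lists a positive value passed for 4 of 15 other glycolytic genes, 7 of 14 of pyruvate entry, 7 of 16 of the tricarboxylic acid cycle, 3 of 8 of the pentose phosphate pathway, 5 of 12 of gluconeogenesis and glycogen, 2 of 16 of oxygen sensing, 11 of 35 other hypoxia-induced genes and 1 of 14 regulators. Negative values that passed numbered 1 for other glycolytic genes, 1 for the tricarboxylic acid cycle, 2 for the pentose phosphate pathway, 7 for oxygen sensing, 3 for other hypoxia-induced genes and 7 for the regulators. The count of 8 regulators was 5 without PARP1 KO DMSO replicate 2 and 4 without WT DMSO replicate 3. The count of 8 genes of the tricarboxylic acid cycle, 7 positive and 1 negative, was 5 without PARP1 KO DMSO replicate 1, 4 without PARP1 KO DMSO replicate 2, 4 without PARP1 KO niraparib replicate 1, 4 without PARP1 KO niraparib replicate 2, 5 without WT DMSO replicate 2, 5 without WT DMSO replicate 3, 5 without WT niraparib replicate 1, 5 without WT niraparib replicate 2 and 5 without WT niraparib replicate 3.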

How the data were processed

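Gene counts were deposited for 18 libraries; the authors trimmed reads (Trimmomatic), aligned them to hg38 (STAR), marked duplicates (Picard) and counted exon reads per gene on the reverse strand with featureCounts 2.0.0 and Ensembl 96. The deposited files are named as deduplicated. Reads that fit overlapping genes of 1 strand, or near-copies of a gene, may be missing. The counts were refitted here in R 4.3.3 with edgeR 4.0.16 (TMM, robust quasi-likelihood), WT and PARP1 KO libraries apart for drug effects and all 18 together for genotypes and interactions, keeping genes with more than 10 counts in total. CPM used TMM-scaled totals, except for PARP1. TPM was computed here from exon lengths. Alternatives were DESeq2 1.42.0, its size factors, other count filters, other fits, a replicate block, leaving out each library, and, added after seeing the data, library totals without TMM factors and leaving out libraries that stood apart (chi-square per gene above 10 to both others of a group that differ by less than 5). Code was tested on simulated data. Members and lists were chosen with earlier results of these data known. Members given by library were the 5 that rose most and the 5 that fell most among those that passed with a mean of 1 CPM or more, in 4 comparisons (each drug against DMSO in WT, genotypes with DMSO, niraparib interaction), plus HIF1A, EPAS1, CA9, VEGFA, SLC2A1, HK2, LDHA and PDK1. List genes named were among the 4 with the largest passing niraparib change in WT; 1 is not reported here. PFKL, PFKM, GPI, GAPDH, TPI1, PGAM1, PKM, SLC16A3, EGLN1, BNIP3, BNIP3L and NDRG1 were named after their values were seen.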

Additional observations from a re-analysis of the deposited data

Results flagged for a closer look

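For the genes below, the test of the interaction passed in edgeR, so the change with the drug differed between PARP1 KO and WT cells. Each value is the log2 change in PARP1 KO minus that in WT. For niraparib the difference was positive for HK1 at 0.80, for LDHA at 0.54, for PFKFB3 at 0.54, for PFKFB4 at 0.46 and for ALDOC at 0.45. Smaller positive differences were 0.44 for GAPDH, 0.41 for PGK1, 0.37 for SLC16A3, 0.35 for PKM, 0.33 for GPI, 0.25 for PGAM1 and 0.18 for TPI1. PGAM1 was 0.18 with plain library totals (adjusted p 0.0573) in edgeR. TPI1 did not pass in other edgeR fits, at 0.11 with plain library totals (adjusted p 0.235), 0.18 with no filter on low counts (adjusted p 0.0797), 0.17 with only the compared groups fitted (adjusted p 0.0657), 0.16 without PARP1 KO niraparib replicate 1 (adjusted p 0.115), 0.19 without PARP1 KO niraparib replicate 2 (adjusted p 0.0564), 0.17 without PARP1 KO DMSO replicate 2 (adjusted p 0.113), 0.18 without PARP1 KO DMSO replicate 3 (adjusted p 0.0844), 0.16 without WT niraparib replicate 2 (adjusted p 0.0973), 0.16 without WT niraparib replicate 3 (adjusted p 0.109), 0.20 without WT DMSO replicate 2 (adjusted p 0.0542) and 0.15 without WT DMSO replicate 3 (adjusted p 0.139). Negative differences with niraparib were -0.75 for VEGFA, -0.51 for ENO2, -0.51 for SLC16A1, -0.49 for SLC2A1, -0.45 for PDK1, -0.42 for HIF1A, -0.40 for PFKP and -0.37 for EGLN1. ENO2 and PDK1 lost the call without some libraries, ENO2 at -0.40 without PARP1 KO niraparib replicate 3 (adjusted p 0.0513) and -0.31 without the libraries that stood apart (adjusted p 0.191) and PDK1 at -0.39 without PARP1 KO niraparib replicate 3 (adjusted p 0.0801), -0.38 without PARP1 KO DMSO replicate 3 (adjusted p 0.0935), -0.38 without WT niraparib replicate 3 (adjusted p 0.0845), -0.39 without WT DMSO replicate 1 (adjusted p 0.0695) and -0.39 without the libraries that stood apart (adjusted p 0.0927) in edgeR. With olaparib the difference passed for HK1, at 0.26, and was lost in edgeR at 0.23 without PARP1 KO olaparib replicate 1 (adjusted p 0.0580), 0.28 without PARP1 KO olaparib replicate 2 (adjusted p 0.0567), 0.26 without PARP1 KO DMSO replicate 1 (adjusted p 0.0622), 0.25 without PARP1 KO DMSO replicate 2 (adjusted p 0.0923), 0.26 without PARP1 KO DMSO replicate 3 (adjusted p 0.0636), 0.26 without WT olaparib replicate 1 (adjusted p 0.0846), 0.25 without WT olaparib replicate 2 (adjusted p 0.0955), 0.24 without WT DMSO replicate 2 (adjusted p 0.0818) and 0.25 without WT DMSO replicate 3 (adjusted p 0.0706).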

How the results depend on the processing

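Counts of members that passed depended on the fold asked for: with more than 1.5-fold as well, 6 passed for niraparib in WT, 2 for olaparib in WT, 2 between the drugs in WT, 0 for olaparib in PARP1 KO, 2 between the drugs in PARP1 KO, 0 between genotypes with DMSO, 2 for the niraparib interaction and 0 for the olaparib interaction, all in edgeR (at an unadjusted p under 0.05 and any fold the 3 counts of 0 were 16, 14 and 6, and by DESeq2 with adjusted p below 0.05 and any fold 12, 5 and 2). Both 1.5-fold counts of 2 between the drugs held EGLN3. Its call was lost in WT without WT olaparib replicate 3, and in PARP1 KO without any 1 library compared. Between genotypes with DMSO, 1 passed with only the compared groups fitted and 1 without the libraries that stood apart. For the olaparib interaction, 2 passed with no filter on low counts, 2 by DESeq2 and 2 with plain library totals. Leaving out each library in turn gave 22 to 27 members for niraparib in WT, 12 to 18 for olaparib in WT, 21 to 24 between the drugs in WT, 0 to 0 for niraparib in PARP1 KO, 5 to 10 for olaparib in PARP1 KO, 7 to 9 between the drugs in PARP1 KO, 0 to 2 between genotypes with DMSO, 18 to 22 for the niraparib interaction and 0 to 1 for the olaparib interaction. For the 21 members given by library, 2747 values were read under alternatives. Of these, 2617 kept their side of the threshold, 97 lost a call, 33 gained one and 0 reversed. The other 17 members, which also lost and gained calls, are not in this tally, and the causes were not tested.

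With a replicate block the counts in the order of the 9 comparisons in the report were 24, 18, 22, 0, 9, 8, 4, 20 and 1, but libraries with the same number did not pair, with correlations from -0.536 to 0.545 between groups, and libraries with different numbers reached 0.655. Plain library totals moved the median of all genes by 0.09 for niraparib against DMSO in WT and gave 14 members higher and 13 lower. The values of CA9, LDHB and EGLN3, each below 1 TPM in WT with DMSO, rest on few counts, and the reason for this was not tested.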

Other observations

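With olaparib in WT cells some counts of the lists around mitochondria and side branches rested on single libraries, and of all genes 11.2% rose and 7.77% fell in edgeR. In edgeR 2 of 14 genes of pyruvate entry fell with olaparib and 0 rose, 5 had an unadjusted p under 0.05, against 30.2% of all genes, and DESeq2 gave 2 lower and 0 higher, against 20% either way. That count was 6 without the libraries that stood apart and 5 without WT DMSO replicate 1. PDHB fell by 0.32 ± 0.063 (adjusted p 0.00114) in edgeR, with all 3 olaparib libraries below DMSO. For the tricarboxylic acid cycle 0 of 16 passed in edgeR, 3 had an unadjusted p under 0.05, DESeq2 passed 1, and the count was 1 without the libraries that stood apart and 1 without WT olaparib replicate 1. In the pentose phosphate pathway 2 of 8 rose in edgeR and the count was 4 without the libraries that stood apart, 1 without WT DMSO replicate 2, 1 without WT DMSO replicate 3, 0 without WT olaparib replicate 1, 1 without WT olaparib replicate 2 and 1 without WT olaparib replicate 3. Of 10 genes of gluconeogenesis and glycogen 2 fell in edgeR, and the count was 5 without the libraries that stood apart and 4 without WT DMSO replicate 1. Among other glycolytic genes 1 rose and 1 fell of 14, shares no higher than those of all genes, and the latter, LDHD, fell by 0.37 ± 0.060 (adjusted p 1.27e-04) in edgeR with no overlap with DMSO.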
